A study of Homo sapiens with 18 samples.

Results

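The replication-dependent histone genes of the chromosome 6 cluster were taken as every gene on chromosome 6 of the human genome build GRCh38 (hg38) that starts between positions 26000000 and 28000000 and whose symbol begins with H1-, H2AC, H2BC, H3C or H4C. Of 61 such genes, 8 pseudogenes were left out, which left 53 of the 58884 genes in the count tables. They comprised 6 H1, 11 H2A, 14 H2B, 10 H3 and 12 H4 genes. Gene IDs gave the symbol of 51 of them. The other 2, H3C2 and H3C3, carry retired IDs and were named from the gene that covers the same bases on the same strand in a later annotation of the same build.

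The counts came from 18 poly(A) RNA libraries of T47D, an established estrogen receptor-positive breast cancer cell line, in 6 groups of 3. Wild-type (WT) cells (the line labelled T47D AAV) and PARP1 knockout (PARP1 KO) cells (1 line, labelled T47D JL) were each given DMSO, niraparib at 10 µM or olaparib at 10 µM for 48 h. Both drugs inhibit PARP enzymes, and all 18 libraries share the T47D background, in which no allele other than PARP1 is named in the labels. The groups allow each drug to be compared with DMSO and with the other drug within a genotype, and the genotypes to be compared without drug and in their response. The replicates are separate dishes, so P values cover the spread between dishes of a single line per genotype. Between 28890837 and 52251288 reads were counted per library. PARP1 stood at 291 to 373 CPM (counts scaled to the size of the library) in the 9 WT libraries and at 22.9 to 27.6 CPM in the 9 PARP1 KO libraries, 7.45% of the WT mean. All 10 luminal breast markers tested were above 1 CPM in every library, and of 8 markers of other cells only the collagen gene COL1A1 was, at up to 153 CPM.

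Core histones H2A, H2B, H3 and H4 form the protein spool of the nucleosome, and linker histone H1 binds the DNA between spools. Replication-dependent histone genes are switched on as cells enter S phase, through NPAT and other factors gathered at histone locus bodies. Their mRNAs end in a short stem-loop, bound by SLBP, in place of a poly(A) tail, and are degraded when DNA synthesis stops. Some of these genes also have downstream poly(A) signals, and a library made from poly(A) RNA recovers mainly the tailed forms.

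A stem-loop matching the histone pattern was found within 150 bases of the stop codon of all 53 members, from 22 to 62 bases after it. The 16-base core took 9 forms, the most common of them in 29 members. All 12 H4 genes had a core that begins with GGCCC, and no gene of another family did. The sequences below, in DNA letters from the hg38 genome with the core in capitals and 5 flanking bases on each side, show the most common form (H2BC8, H1-2), a form with another loop base (H2BC5) and the H4 form (H4C8).
H2BC8, chr6:26216213-26216238, minus strand: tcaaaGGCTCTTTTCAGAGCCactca
H1-2, chr6:26055739-26055764, minus strand: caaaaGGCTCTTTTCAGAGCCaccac
H2BC5, chr6:26158582-26158607, plus strand: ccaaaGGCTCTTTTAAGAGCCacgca
H4C8, chr6:26285126-26285151, minus strand: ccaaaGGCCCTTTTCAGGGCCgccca

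The models on which reads were counted differ in whether they run on past this stem-loop. In 32 of 53 members no counted exon base lay past it. The length was divisible by 3, as a coding sequence has it, in 35 models. These include models that run on past the stem-loop, such as that of H2AC6 (1668 bases, 1128 past it). More than 100 counted bases lay past the stem-loop in 16 members, and 13 of these held the poly(A) signal AATAAA or ATTAAA there. The promoters differed by family. RefSeq promoter windows (GRCh38.p14, from 250 bases before to 50 bases after the start) were matched for 48 members. The listed start lay within 100 bases of the 5′ end of the counted model in 42 of the 48. In H2BC6 it lay 11702 bases away. TATAAA on either strand was in 31 of 48 (64.6%, against 12% of all 27305 promoters), and CCAAT in 41 (85.4%, against 35.7%). The octamer ATTTGCAT was in 20 (41.7%, against 1.8%). Of these, 8 were among 10 H2A and 11 among 14 H2B windows, and the last was the window of H3C4, whose listed start is that of H2AC7. The H1 box AAACACA was in all 6 H1 windows and in no other (12.5% of members, against 5.76% of all promoters). CCAAT was in every H1, H2A, H2B and H3 window and in 3 of 10 H4 windows. These matches describe letters, not binding. The 150 bases before the start are shown for 4 genes that fell with both drugs in WT cells (H2BC8, H2BC7, H2BC4 and H3C10) and for H2BC5 and H1-2, highly expressed genes that were not called in those comparisons, with the 4 motifs in capitals.
H2BC8, chr6:26216689-26216838, minus strand: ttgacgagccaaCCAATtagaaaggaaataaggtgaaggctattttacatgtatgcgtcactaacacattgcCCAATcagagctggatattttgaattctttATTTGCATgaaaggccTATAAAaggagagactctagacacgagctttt
H2BC7, chr6:26199366-26199515, plus strand: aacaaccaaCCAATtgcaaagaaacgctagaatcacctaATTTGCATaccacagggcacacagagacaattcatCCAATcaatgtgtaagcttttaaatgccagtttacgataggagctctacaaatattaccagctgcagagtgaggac
H2BC4, chr6:26123927-26124076, minus strand: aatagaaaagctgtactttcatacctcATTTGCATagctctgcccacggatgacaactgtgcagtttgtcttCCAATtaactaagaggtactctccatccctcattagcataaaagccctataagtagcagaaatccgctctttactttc
H3C10, chr6:27809901-27810050, plus strand: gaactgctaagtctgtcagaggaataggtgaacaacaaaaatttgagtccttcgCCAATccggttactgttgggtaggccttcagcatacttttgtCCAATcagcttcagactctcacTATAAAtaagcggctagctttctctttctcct
H2BC5, chr6:26157971-26158120, plus strand: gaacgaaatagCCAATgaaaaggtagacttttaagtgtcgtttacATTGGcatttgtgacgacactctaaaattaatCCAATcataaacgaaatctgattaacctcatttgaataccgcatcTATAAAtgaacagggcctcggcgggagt
H1-2, chr6:26056471-26056620, minus strand: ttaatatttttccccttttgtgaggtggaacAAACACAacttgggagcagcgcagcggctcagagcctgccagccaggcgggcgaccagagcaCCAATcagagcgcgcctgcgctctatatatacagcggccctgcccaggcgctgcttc

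The level of the cluster rested on few genes. Of 53 members, 16 had a mean of at least 1 CPM over the 18 libraries, 22 were below 0.1 CPM and 5 had no count at all. The 10 members with the highest CPM held 90.8% of the summed CPM. Per kilobase of exon (RPKM), H1-2, a linker histone, was highest at 74.2, followed by the H2B genes H2BC12 at 48.8 and H2BC5 at 34.6. The leading H2A genes were H2AC6 at 24.2 and H2AC8 at 9.19 RPKM. H3C10 and H3C6 led the H3 genes at 7.5 and 4.18 RPKM. The leading H4 genes stood at 2.94 (H4C8) and 1.33 RPKM (H4C5), and H1-3, the second H1 gene, at 1.10 RPKM.

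The split at 100 bases past the stem-loop was chosen after the files were seen and describes levels only. The median was 2.13 RPKM in the 16 members with more than 100 such bases and 0.220 RPKM in the other 37, and at least 1 CPM was reached by 12 of 16 and by 4 of 37. By total exon length, 12 of 19 models above 700 bases and 4 of 34 of at most 700 bases reached 1 CPM. The exceptions went both ways. H1-2 and H2BC12, the top 2 by RPKM, had no counted base past the stem-loop, and H2AC11, with 1761 bases past it, had no count. Of the 50-base stretches of H2BC12, 74.1% also occur elsewhere in the genome, so that its reads may be shared with near-identical copies. This share was above 50% in 5 members, the others being H2AC13 (62.3%), H2AC14 (83.7%), H4C11 (91.7%) and H4C12 (100%). H3C4, H2AC7 and H2AC17, none of which had a count, share 88.0% to 100% of their exon bases with a same-strand neighbour, where reads went unassigned. As a check on RNA without a tail, 5 of 7 such RNAs had no count, while RN7SL1 and RN7SL2, the RNAs of the signal recognition particle, averaged 70.8 and 75.7 CPM. The summed level of the 7 spanned 40.8 to 155 CPM in WT DMSO, 118 to 168 in WT niraparib and 69.8 to 216 in WT olaparib libraries. It was 170 to 283 CPM in PARP1 KO DMSO, above every WT DMSO library, 113 to 227 in PARP1 KO niraparib and 40.6 to 247 in PARP1 KO olaparib libraries. Neither RNA was called in any comparison. Its part in the results below was not tested.

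**Figure D1:**
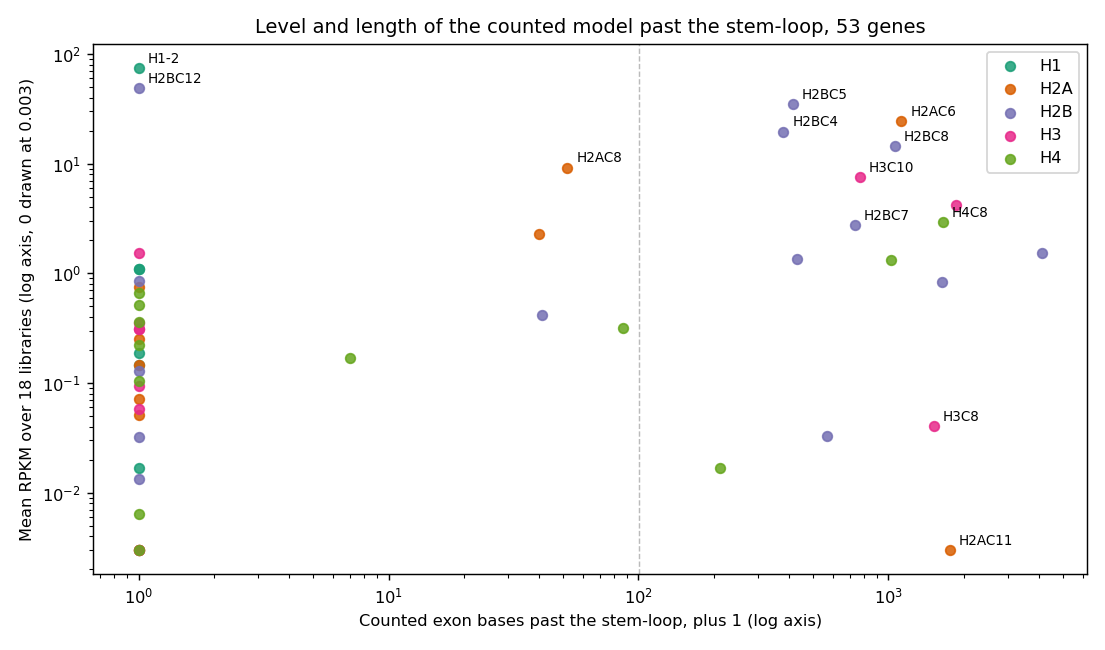
Mean level over 18 libraries (RPKM, log axis, with 0 drawn at 0.003) of the 53 members against the number of counted exon bases past the stem-loop plus 1 (log axis), coloured by family. The dashed line marks 100 bases. Most members without such bases lie below 1 RPKM, with H1-2 and H2BC12 far above them.

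In WT cells, the cluster was lower with niraparib than with DMSO, and no member was called higher. Summed over the 53 members, the level was 281, 283 and 284 CPM with DMSO and 173, 139 and 178 CPM with niraparib. Of the 40 members that could be tested (more than 10 counts in all), 15 were called lower (adjusted P below 0.05 and more than 1.5-fold, edgeR's quasi-likelihood test, adjusted over 22446 genes) and 0 higher, where 5.72% of all genes tested were called lower and 8.1% higher. The highest niraparib library was lower than the lowest DMSO library in 24 of the 40, and in 22.5% of all genes. The median log2 fold change was -0.86 over the 40 members and -0.02 over all genes tested. By family, the summed level with DMSO and niraparib was 134 ± 6.38 and 66.2 ± 8.06 CPM for H2B (mean ± SD, n = 3), 58.2 ± 2.98 and 31.8 ± 5.46 CPM for H2A and 27.7 ± 1.5 and 14.8 ± 1.26 CPM for H3. It was 10.5 ± 0.792 and 7.92 ± 0.754 CPM for H4, and 52.8 ± 5.53 and 42.6 ± 6.39 CPM for H1, of which H1-2 is the main part. In bulk RNA, fewer cells that express a gene and less RNA per cell cannot be told apart. The libraries were made from poly(A) RNA, so these levels are mainly those of tailed forms. The tailed share of histone mRNA was not measured.

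The called members with the largest falls, H2BC17, H2BC7 and H2BC8, all encode H2B. H2BC8 (ENSG00000273802, chr6:26215159-26216692, minus strand) was at 40.4, 32.4 and 32.9 CPM with DMSO and at 8.09, 8.27 and 10.3 CPM with niraparib, so that the groups were far apart. The fold change was 0.253 (log2 -1.98, SE 0.11, adjusted P = 1.03e-10, edgeR). H2BC7 (ENSG00000277224, chr6:26199520-26200715, plus strand) fell from 6.0, 4.85 and 5.66 to 1.04, 1.22 and 1.38 CPM, a log2 fold change of -2.16 (SE 0.17, adjusted P = 1.49e-09, edgeR). H2BC4 (ENSG00000180596, chr6:26114873-26123926, minus strand) was at 22.8, 22.2 and 20.4 CPM with DMSO and at 8.06, 7.04 and 10.2 CPM with niraparib (log2 -1.38, SE 0.12, adjusted P = 2.86e-08, edgeR). H2BC9 fell by 1.85 on the log2 scale (SE 0.37), from 4.40, 1.49 and 2.04 to 0.982, 0.648 and 0.543 CPM, with DMSO replicate 1 well above the other DMSO libraries. H2BC12 fell by 0.73 (SE 0.10). The weakly expressed H2BC17 fell by 2.24 (SE 0.49), from 17, 33 and 15 counts to 5, 5 and 4. H2BC5, H2BC6 and H2BC15 passed the adjusted P value but changed by less than 1.5-fold, with log2 fold changes of -0.47, -0.53 and -0.43. In all, 6 of 12 H2B genes tested were called lower.

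Among H2A genes, 3 of 6 tested were called lower. H2AC6 was at 48.2, 52.7 and 50.1 CPM with DMSO and at 29.3, 21.8 and 31.9 CPM with niraparib, without overlap (log2 -0.87, SE 0.12, adjusted P = 0.000159, edgeR). H2AC8 went from 5.03, 6.40 and 6.56 to 3.0, 2.90 and 3.16 CPM, a log2 fold change of -1.0 (SE 0.14). H2AC13 fell by 0.84 (SE 0.27, adjusted P = 0.0166, edgeR), a call that was lost without niraparib replicate 1 (adjusted P = 0.0635) or 2 (adjusted P = 0.0722). Of 8 H3 genes tested, 4 were called lower. H3C10 (ENSG00000278828, chr6:27810064-27811300, plus strand) was at 14.1, 12.6 and 11.96 CPM with DMSO and at 5.71, 4.41 and 6.19 CPM with niraparib (log2 -1.25, SE 0.13, adjusted P = 4.46e-08, edgeR). H3C6 fell by 0.62 (SE 0.10), just past the 1.5-fold limit, and was at 1.5-fold or less without niraparib replicate 1 (log2 -0.58). The low H3C2 and H3C12 fell by 1.0 and 1.64, with adjusted P of 0.0454 and 0.0422 (edgeR). The call of H3C2 was lost without DMSO replicate 2 or 3, niraparib replicate 1 or 3, or olaparib replicate 2 (adjusted P from 0.0541 to 0.161), and that of H3C12 without DMSO replicate 1 or 3 or niraparib replicate 1 or 2 (adjusted P from 0.0753 to 0.152).

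H4 and H1 genes had fewer calls, 1 of 9 and 1 of 5 tested. H4C5 went from 2.40, 2.29 and 2.72 to 1.46, 1.6 and 1.38 CPM (log2 -0.73, SE 0.19, adjusted P = 0.00433, edgeR). H4C8, the leading H4 gene, was not called (log2 -0.29, SE 0.13, adjusted P = 0.089, edgeR). H1-3, with a mean of 0.735 CPM over the 18 libraries, fell by 1.43 (SE 0.38). It went from 1.53, 0.678 and 0.872 to 0.446, 0.252 and 0.444 CPM, with DMSO replicate 1 well above the other DMSO libraries. H1-2 (ENSG00000187837, chr6:26055787-26056428, minus strand), the highest member, was at 43.7, 55.1 and 53.1 CPM with DMSO and at 46.6, 34.2 and 42.8 CPM with niraparib, and these ranges overlap (log2 -0.31, SE 0.12, adjusted P = 0.0732, edgeR). Whether members differed from each other in their change was not tested.

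**Figure D2:**
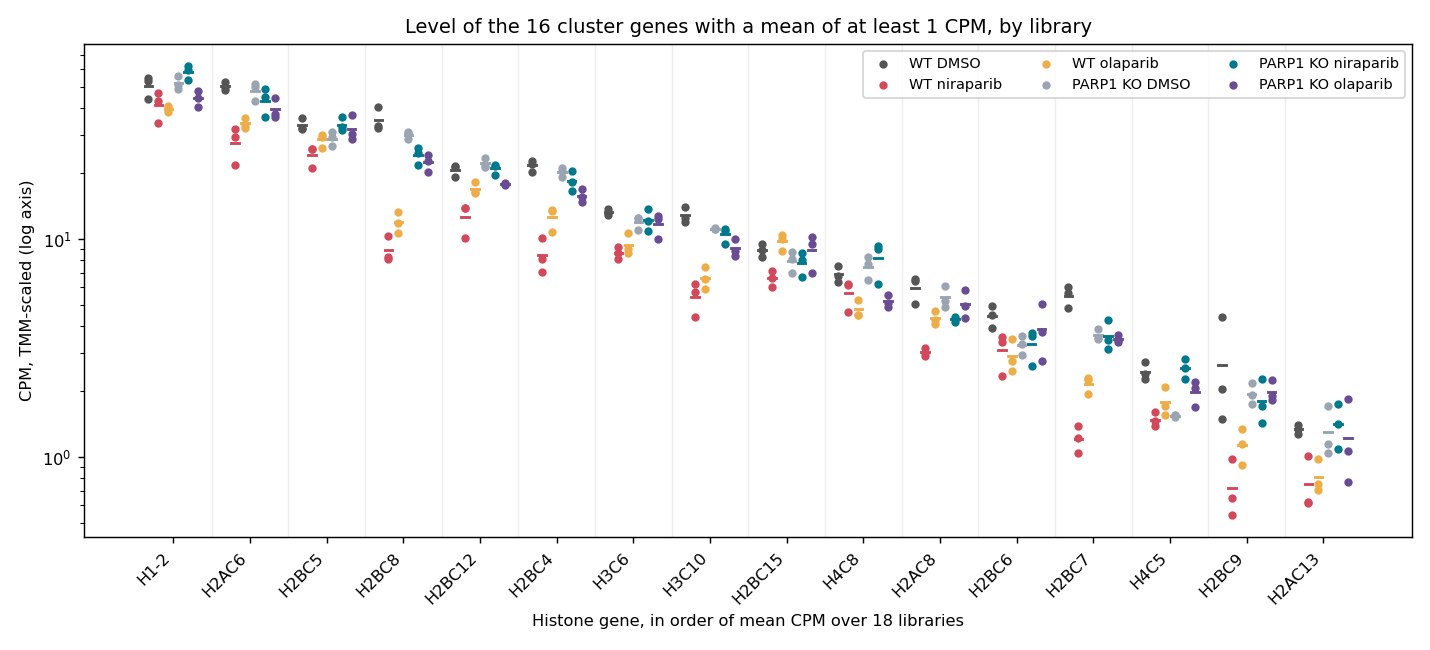
Level (TMM-scaled CPM, log axis) of the 16 members with a mean of at least 1 CPM, in order of that mean. Each point is 1 library, each short line the mean of 3, coloured by group. In WT cells the niraparib and olaparib points of H2BC8, H2BC7 and H3C10 lie well below those of DMSO, while in PARP1 KO cells the 3 groups lie closer together.

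With olaparib, the summed level in WT cells was 190, 194 and 189 CPM, below all 3 DMSO libraries. The comparison uses the same DMSO libraries as that of niraparib. Of 40 members tested, 6 were called lower and 0 higher, where 1.98% of all genes tested were called lower and 2.06% higher. The highest olaparib library was lower than the lowest DMSO library in 23 of 40 members and in 17.4% of all genes. At an adjusted P below 0.05 with no fold limit, 10 of 40 members were lower, against 7.77% of all genes. The median log2 fold change was -0.56 over the members and -0.02 over all genes.

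H2B genes made up 5 of the 6. H2BC8 was at 11.9, 13.3 and 10.6 CPM with olaparib, below the lowest DMSO library at 32.4 CPM (log2 -1.55, SE 0.11, adjusted P = 2.25e-08, edgeR). H2BC7 was at 2.25, 2.30 and 1.94 CPM, also clear of the DMSO libraries (log2 -1.33, SE 0.16, adjusted P = 5.28e-06, edgeR). H2BC4 stood at 13.7, 13.4 and 10.8 CPM and fell by 0.78 (SE 0.11). The H3 gene H3C10, at 7.41, 5.90 and 6.54 CPM, fell by 0.95 (SE 0.12, adjusted P = 1.11e-05, edgeR). The other 2 calls changed when single libraries were left out. H2BC9 fell by 1.18 (SE 0.36, adjusted P = 0.0344, edgeR), from 4.40, 1.49 and 2.04 to 1.35, 0.921 and 1.14 CPM. Without DMSO replicate 1 its log2 fold change was -0.62 (adjusted P = 0.128), and the call was also lost without niraparib replicate 2 or any of the olaparib libraries (adjusted P from 0.0578 to 0.136). H2BC6 fell by 0.60 (SE 0.18, adjusted P = 0.0219, edgeR), and lost its call without DMSO replicate 1 or 3 or olaparib replicate 2 or 3 (adjusted P from 0.0558 to 0.115).

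A smaller decrease, at an adjusted P below 0.05 but under 1.5-fold, was measured with olaparib for H2AC6, H2AC8, H3C6 and H4C8. H2AC6 was at 32.5, 33.3 and 36.0 CPM (log2 -0.57, SE 0.12, adjusted P = 0.00696, edgeR). H4C8 was at 4.48, 5.28 and 4.51 CPM, below the DMSO libraries at 6.37, 6.77 and 7.53 CPM (log2 -0.53, SE 0.14, adjusted P = 0.00739, edgeR). H1-2 was at 38.3, 40.7 and 39.7 CPM, also below all 3 DMSO libraries, and did not pass the test (log2 -0.36, SE 0.12, adjusted P = 0.0724, edgeR). H2BC15 was the only member of at least 1 CPM with a positive log2 fold change, 0.14 (SE 0.11, adjusted P = 0.408, edgeR).

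**Figure D3:**
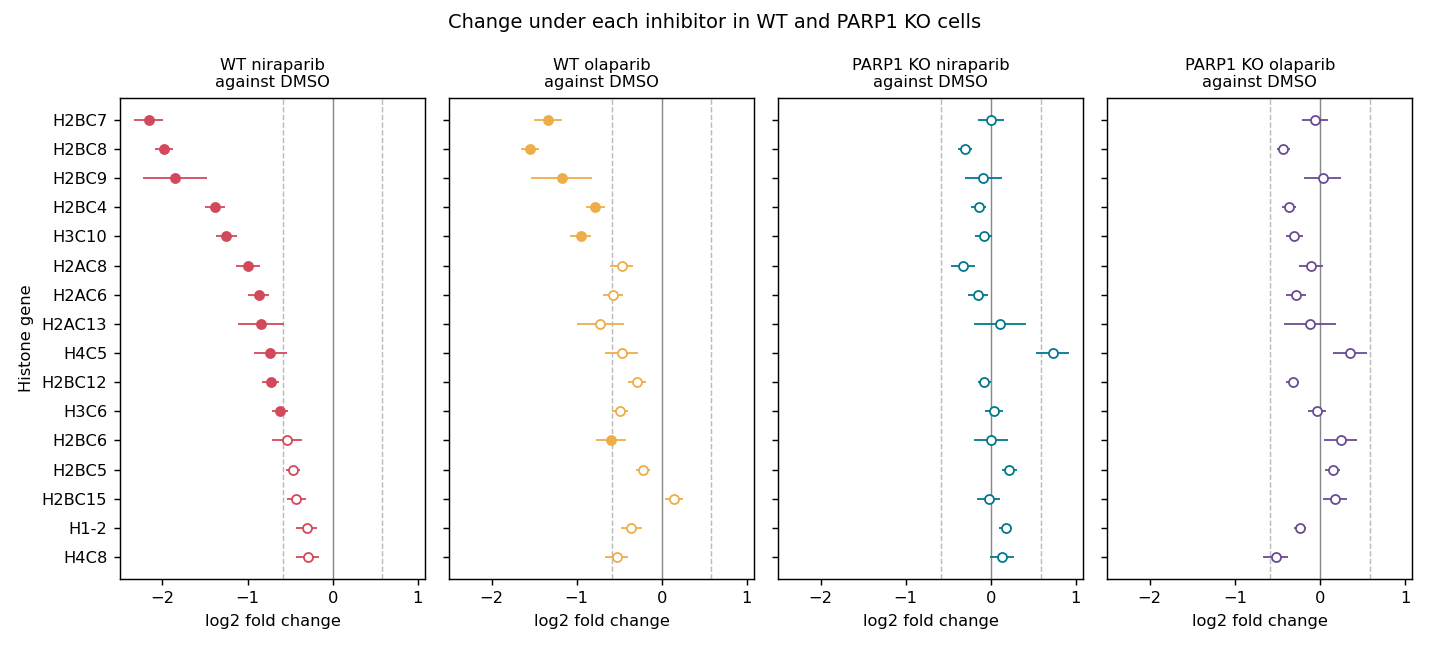
Log2 fold change against DMSO (edgeR, error bars are SE) of the 16 members with a mean of at least 1 CPM, for niraparib and olaparib in WT and PARP1 KO cells. Filled points are called, open points are not, and dashed lines mark 1.5-fold. WT niraparib values range from -2.16 to -0.29, and no PARP1 KO point is filled.

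Niraparib and olaparib, both PARP inhibitors given at 10 µM for 48 h, were compared directly in WT cells. Of 40 members tested, 2 were called lower with niraparib than with olaparib and 0 higher, where 3.33% of all genes tested were called lower and 1261 of 22446 higher. H2BC7 differed by -0.83 on the log2 scale (SE 0.18, adjusted P = 0.0011, edgeR), with niraparib libraries at 1.04 to 1.38 CPM and olaparib libraries at 1.94 to 2.30 CPM. H2BC4 differed by -0.60 (SE 0.12, adjusted P = 0.000686, edgeR). That difference was just over 1.5-fold, and it was under 1.5-fold without niraparib replicate 1 or 2 or olaparib replicate 1 or 2 (log2 from -0.58 to -0.47). H2BC8 differed by -0.43 (95% CI -0.65 to -0.21, adjusted P = 0.00608, edgeR), under the fold limit. H2BC15 was at 7.17, 6.05 and 6.66 CPM with niraparib and at 10.1, 8.83 and 10.4 CPM with olaparib (log2 -0.57, SE 0.11, adjusted P = 0.00026, edgeR). At an adjusted P below 0.05 with no fold limit, 7 of 40 members were lower with niraparib, near the share of all genes (3627 of 22446).

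In PARP1 KO cells the same comparisons gave few differences in the cluster. The summed level was 249.1, 263 and 277 CPM with DMSO, 272, 263 and 245 CPM with niraparib, and 248, 218 and 225 CPM with olaparib. The niraparib and DMSO libraries overlapped, while the highest olaparib library was just under the lowest DMSO library. With niraparib, 0 of 38 members tested were called by edgeR, as 0 were by DESeq2, where 0.0136% of all genes were called in either direction. At an unadjusted P below 0.05 there were 6 members and 2013 genes. H2BC8 was at 28.7, 31.0 and 30.8 CPM with DMSO and at 24.7, 21.96 and 26.2 CPM with niraparib, without overlap (log2 -0.30, 95% CI -0.46 to -0.15, adjusted P = 0.15, edgeR). H2BC7 was at 3.89, 3.49 and 3.51 CPM with DMSO and at 3.12, 3.44 and 4.24 CPM with niraparib, and its 95% CI of -0.30 to 0.31 excludes a change as large as that in WT cells. Of the 16 members of at least 1 CPM, H4C5 had the largest positive value, 0.73 (SE 0.20, adjusted P = 0.171, edgeR), with 1.56, 1.53 and 1.55 CPM in DMSO and 2.56, 2.28 and 2.82 CPM in niraparib libraries.

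With olaparib in PARP1 KO cells, 0 of 38 members were called, where 0.803% of all genes were called in either direction. At an unadjusted P below 0.05 there were 8 members and 4640 genes. At an adjusted P below 0.05 with no fold limit, 4 members were lower, against 3.87% of all genes. They were H2BC8 (log2 -0.43, SE 0.08), H2BC4 (-0.36, SE 0.09), H4C8 (-0.52, SE 0.14) and H2BC12 (-0.32, SE 0.08). H2BC8 stood at 20.2, 22.7 and 24.4 CPM. Between niraparib and olaparib in these cells, H4C8 was the only member called (higher with niraparib, where 0.622% of all genes were), at 9.01, 9.29 and 6.22 against 5.54, 5.11 and 4.90 CPM (log2 0.65, SE 0.14, adjusted P = 0.0051, edgeR). Without niraparib replicate 1 or 2 its difference was under 1.5-fold (0.58 and 0.55).

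Without drug, 1 of 44 members tested was called between the genotypes, where 0.0851% of all genes were called lower in PARP1 KO cells. H2BC7 was at 3.89, 3.49 and 3.51 CPM in PARP1 KO and at 6.0, 4.85 and 5.66 CPM in WT cells, without overlap (log2 -0.59, SE 0.15, adjusted P = 0.0389, edgeR). The call was lost without WT replicate 1 or 3 or any of the PARP1 KO replicates (adjusted P from 0.0836 to 0.24). H2BC8 did not pass (log2 -0.22, SE 0.10, adjusted P = 0.303, edgeR).

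**Figure D4:**
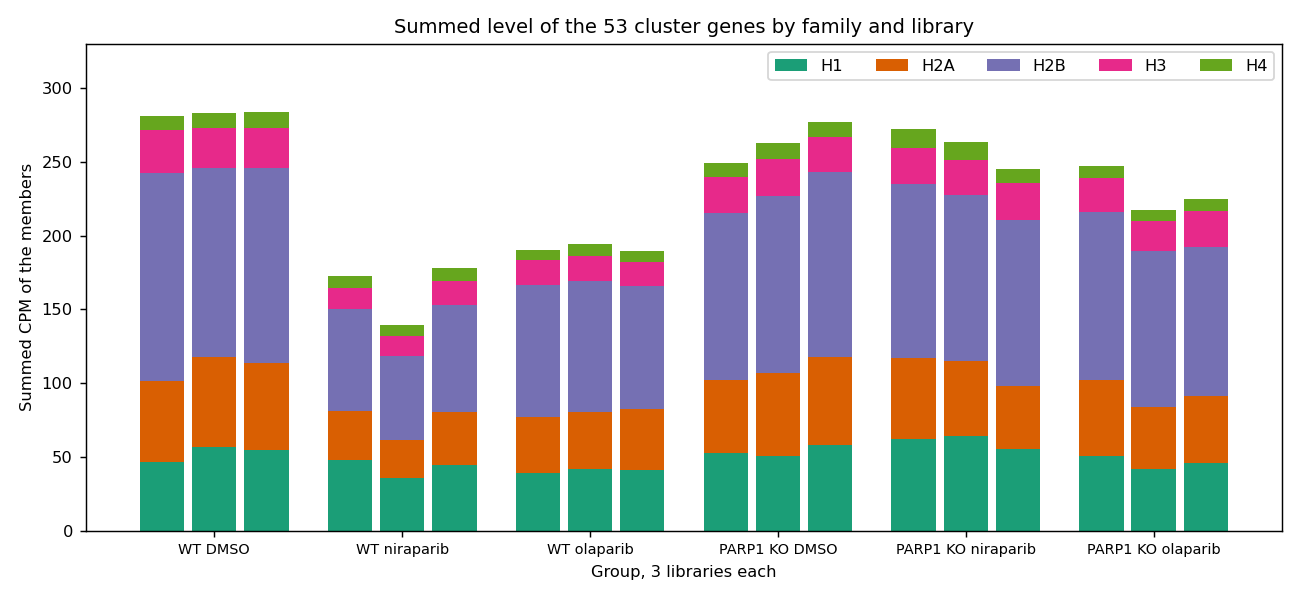
Summed level (TMM-scaled CPM) of the members in each of the 18 libraries, stacked by histone family from a 0 baseline. WT niraparib libraries total 139 to 178 CPM and WT olaparib libraries 189 to 194 CPM, against 281 to 284 CPM for WT DMSO and 218 to 277 CPM for the PARP1 KO libraries.

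The response to drug was then compared between genotypes, as the log2 fold change in PARP1 KO minus that in WT cells. For niraparib, 14 of 44 members tested were called higher in this contrast and 0 lower, where 3.68% of all genes were called higher and 1283 of 24675 lower. They were 6 H2B genes (H2BC4, H2BC5, H2BC7, H2BC8, H2BC9, H2BC12), the weakly expressed H2BC17, 2 H2A (H2AC6, H2AC8) and 2 H3 genes (H3C6, H3C10). The others were 2 H4 genes (H4C5, H4C12) and the weakly expressed H1-3. H2BC7 differed by 2.16 (SE 0.23, adjusted P = 3.34e-09, edgeR) and H2BC8 by 1.67 (SE 0.14, adjusted P = 1.13e-09, edgeR). H3C10 differed by 1.16 (SE 0.16), H2BC4 by 1.23 (SE 0.15) and H4C5 by 1.45 (SE 0.27). Those of H2AC6 and H2BC12, 0.72 and 0.65, and that of H2BC5, 0.68, were each under 1.5-fold without WT niraparib replicate 2 (0.56, 0.50 and 0.58), and that of H3C6, 0.65, without PARP1 KO niraparib replicate 3 (0.56). H4C12 and H2BC17 rest on few counts. H4C12 had 3, 15 and 10 counts in WT DMSO, 2, 10 and 3 in WT niraparib, 3, 4 and 1 in PARP1 KO DMSO and 7, 13 and 7 in PARP1 KO niraparib libraries. Each of these 2 calls was lost without any of 7 single libraries (adjusted P up to 0.114).

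For olaparib, 3 of 44 members were called higher in the same contrast, where 0.276% of all genes were. H2BC7 differed by 1.28 (SE 0.22, adjusted P = 0.000846, edgeR), H2BC8 by 1.13 (SE 0.14, adjusted P = 2.95e-05, edgeR) and H3C10 by 0.66 (SE 0.16, adjusted P = 0.0191, edgeR). The call of H3C10 was lost without WT DMSO replicate 1, WT olaparib replicate 2 or PARP1 KO olaparib replicate 3 (adjusted P from 0.0636 to 0.0828). The 2 interactions share the WT and PARP1 KO DMSO libraries.

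The members lie in 3 stretches of the 1876.76 kb between the first and the last. The first, chr6:26017085-26285638, holds 32 members and 83.2% of the summed CPM. In WT cells, 10 of its 27 tested members were called lower with niraparib and 5 with olaparib, where 5.72% and 1.98% of all genes were. The second, chr6:27125897-27147515, holds 5 members, of which only H2BC12 reached 1 CPM. The third, chr6:27807444-27893843, holds 16 members and 8.76% of the sum, with 4 of 11 tested called lower with niraparib and 1 with olaparib. In 9 pairs, neighbouring members on opposite strands start 219 to 357 bases apart. In WT niraparib libraries, H2BC4 fell by 1.38 and its partner H2AC6 by 0.87, and H2BC8 fell by 1.98 and its partner H2AC8 by 1.0. The difference between partners was not tested. H2BC7 is paired with H2AC7, which had no count.

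**Figure D5:**
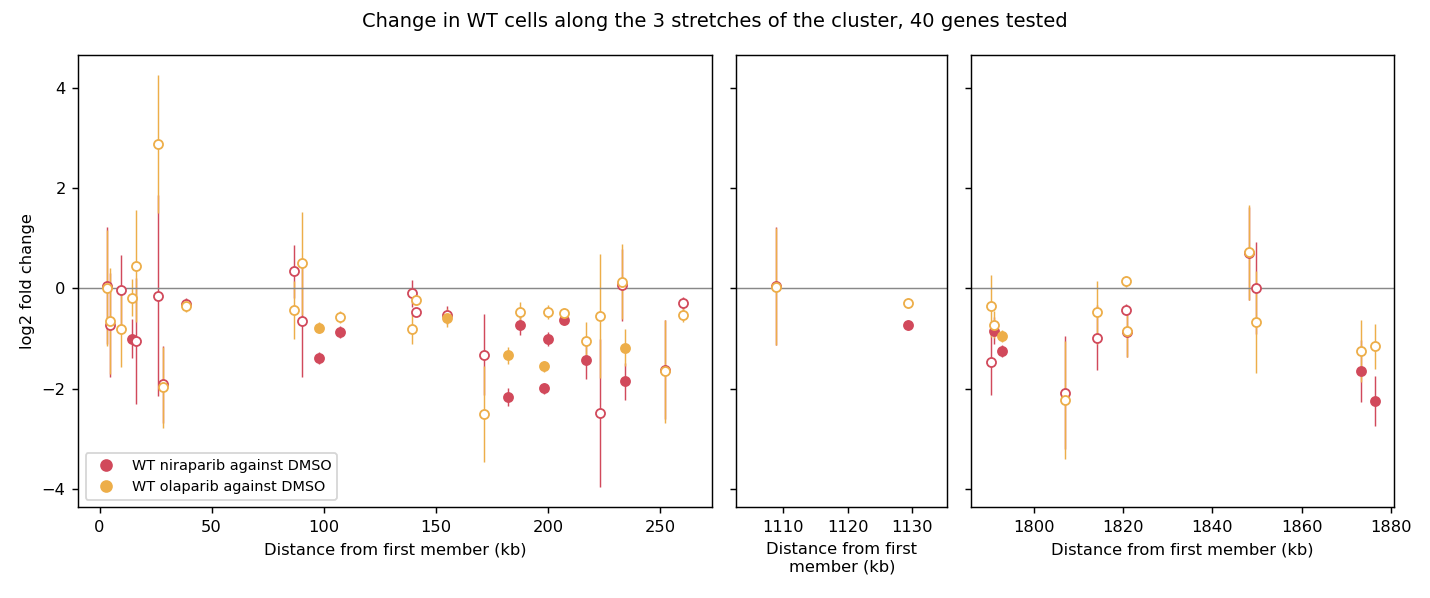
Log2 fold change of niraparib and olaparib against DMSO in WT cells (edgeR, error bars are SE) of the 40 members tested, by distance in kb from the first member, in 3 panels for the 3 stretches. Filled points are called. Filled points, all below 0, occur in every stretch, with only H2BC12 in the second.

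Replication-dependent histone genes outside this window moved in part with the cluster. Of 16 such genes 9 were tested in WT cells, and 2 were called lower with each drug, where 5.72% of all genes were called lower with niraparib and 1.98% with olaparib. H2BC21 (chr1:149884459-149886652) was at 47.4, 42.7 and 45.9 CPM with DMSO, 19.9, 17.3 and 20.2 with niraparib and 21.9, 22.2 and 21.6 with olaparib. Its log2 fold change was -1.25 with niraparib (SE 0.07, adjusted P = 4.09e-12, edgeR) and -1.05 with olaparib (SE 0.07, adjusted P = 1.09e-09, edgeR). In PARP1 KO cells it was at 36.4, 36.4 and 39.5 CPM with DMSO, at 37.3, 34.3 and 36.4 with niraparib and at 34.4, 31.7 and 37.0 with olaparib, which overlap. H2BC26 (chr1:228458107-228460470) was called with olaparib (log2 -0.85, SE 0.15, adjusted P = 0.000299, edgeR) and not with niraparib (-0.30, SE 0.14, adjusted P = 0.102, edgeR). The weakly expressed H2BC18 was called with niraparib, from 1.33, 0.795 and 1.05 to 0.595, 0.630 and 0.444 CPM (log2 -0.90, SE 0.34, adjusted P = 0.0418, edgeR). That call was lost with DESeq2 (adjusted P = 0.0551) and without DMSO replicate 1 or 3 or niraparib replicate 1 or 3 (adjusted P from 0.074 to 0.14). H2AC25 was higher with niraparib at under 1.5-fold (log2 0.32, SE 0.08, adjusted P = 0.00483, edgeR). Of 11 replacement histone genes, which are expressed outside S phase, 1 was called higher and 1 lower with niraparib in WT cells and 0 with olaparib. With niraparib, 8.1% and 5.72% of all genes were called higher and lower, so these counts are near the background. At an adjusted P below 0.05 with no fold limit, 4 of the 11 were higher and 6 lower with niraparib, against 4469 and 4061 of 22446 genes. The gene called lower was CENPA, the centromeric H3 variant (log2 -1.39).

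Of 20 genes for the transcription, 3′ processing and decay of histone mRNA, 2 were called higher with niraparib in WT cells and 0 lower, where 8.1% and 5.72% of all genes were. At an adjusted P below 0.05 with no fold limit, 13 were higher and 2 lower, against 4469 and 4061 of all 22446 genes. Of the 20, 0 were called with olaparib in WT cells, where 2.06% of all genes were called higher and 1.98% lower. In PARP1 KO cells 0 were called with niraparib or olaparib (0.0136% and 0.803% of all genes). With no fold limit, 7 were higher and 1 lower with olaparib in WT cells (2525 and 1745 of 22446 genes). In PARP1 KO cells 2 were higher with olaparib (975 of 22037 genes). With niraparib in WT cells, ZNF473, a zinc finger protein of the histone pre-mRNA processing complex, rose by 0.96 (SE 0.07, adjusted P = 1.24e-10, edgeR). LSM10, a subunit of the U7 snRNP, rose by 0.61 (SE 0.10), and was under 1.5-fold without DMSO replicate 1 (0.57). SLBP, which binds the stem-loop, did not pass with niraparib (log2 -0.01, adjusted P = 0.881, edgeR). Its level with olaparib was higher, at under 1.5-fold (log2 0.40, SE 0.05, adjusted P = 9.51e-06, edgeR). NPAT, the activator of these genes, had values of 0.18 and 0.02. Among 20 histone chaperones, 1 was called higher and 1 lower with niraparib, near the share of all genes, and 0 with olaparib.

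Marker genes of the cell cycle moved with the groups. Of 42 S phase genes tested in WT cells, 12 were called higher with niraparib (median log2 fold change 0.41) and 3 with olaparib (0.22), where 8.1% and 2.06% of all genes were called higher, and 0 were called lower with either. At an adjusted P below 0.05 with no fold limit, 31 were higher with niraparib and 26 with olaparib (4469 and 2525 of 22446 genes). At that limit 0 and 1 were lower (4061 and 1745 genes). The summed S phase level ranged from 2614 to 2893 CPM in WT DMSO, from 3580 to 3711 in WT niraparib and from 3238 to 3361 in WT olaparib libraries. It was 3135 to 3207 CPM in PARP1 KO DMSO libraries, above WT DMSO, and lower with drug, at 2943 to 2958 CPM with niraparib and 2900 to 2971 CPM with olaparib. No S phase gene was called in these PARP1 KO comparisons or between the genotypes without drug. At an adjusted P below 0.05 with no fold limit, 1 was lower with niraparib in PARP1 KO cells (11 of all 22037 genes). With olaparib 11 were lower and 2 higher (852 and 975 genes), and 14 were higher in PARP1 KO than in WT DMSO libraries (200 of all 24675 genes).

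Of 20 G2/M genes, 15 were called lower with niraparib (median -1.01) and 2 with olaparib (-0.21) in WT cells, where 5.72% and 1.98% of all genes were called lower, and 0 with either drug in PARP1 KO cells. With no fold limit, 19 were lower in WT cells with niraparib and 11 with olaparib (4061 and 1745 of 22446 genes). At that limit 1 was higher with olaparib (2525 genes). Of the 10 luminal markers, 2 were called lower with niraparib and 1 with olaparib in WT cells, and 9 and 8 were lower at an adjusted P below 0.05 with no fold limit, as were 4061 and 1745 of all 22446 genes. Their summed level ranged from 13781 to 14432 CPM with DMSO, from 9835 to 10929 CPM with niraparib and from 10743 to 11240 CPM with olaparib. In PARP1 KO cells 0 luminal markers were called with either drug, and 5 were lower with olaparib with no fold limit, as were 852 of all 22037 genes. The summed luminal level there ranged from 15333 to 16035 CPM with DMSO and from 14141 to 14458 CPM with niraparib. With olaparib it ranged from 12932 to 14132 CPM. Of the 8 markers of other cells only 3 had enough counts to be tested in WT cells, and 0 of these were called. The part of these shifts in the histone results was not tested.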

How the data were processed

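Poly(A) RNA from 18 dishes of T47D cells was sequenced, with 3 dishes for each of 6 groups. The authors trimmed reads (Trimmomatic), aligned them to hg38 (STAR) and deposited whole-number counts of reads per gene, made with featureCounts 2.0.0 on exons of Ensembl annotation 96, by strand and for primary alignments. A read that fits several gene copies could thus be counted at its primary position, and reads on overlapping genes of the same strand were not counted. Labels and methods name different culture media, RNA kits and RNA inputs. The paper states that PCR duplicates were identified and counted (Picard). Read length and the removal of duplicates are not given in the sources used here.

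The counts were tested as deposited with edgeR 4.0.16 (R 4.3.3; limma 3.58.1), using TMM scaling and robust quasi-likelihood F tests, for genes with more than 10 counts over the libraries of the fit. Drug comparisons used the 9 libraries of a genotype (22446 genes in WT, 22037 in PARP1 KO), and comparisons between genotypes all 18 (24675 genes). P values were Benjamini-Hochberg adjusted over all genes tested. Calls needed an adjusted P below 0.05 together with over 1.5-fold change. SE was taken as the absolute log2 value over the root of F. CPM are TMM-scaled, and RPKM divides them by counted exon length. The steps were tested on simulated data with known changes. Alternatives were size factors, count filters, DESeq2 1.42.0, call limits, all 18 libraries in 1 fit, a replicate block and each library left out in turn.

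The members and gene lists were chosen with earlier results of these data known. Named were the called members with a mean of at least 1 CPM over the libraries of the fit (H2AC13 had 0.968 in WT) and the largest changes (up to 10 a comparison), the 2 highest of each family, PARP1, SLBP, NPAT, called genes of the processing list and called histone genes of at least 1 CPM outside the window. H2BC18, H2AC25 and CENPA were named after their values were seen. Other members were named for position, sequence, length or low counts. The marker and gene lists comprised luminal, other-cell, processing, chaperone, replacement histone, outside-window histone, S phase, G2/M and untailed RNA genes. Of the replacement histone list, 1 gene is not reported here. Stem-loops were read from the genome of the same build and promoters from RefSeq (GRCh38.p14). No 2 libraries of a group agreed within sampling noise (chi-square of 3.13 to 19.0 per gene over 18 pairs).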

Additional observations from a re-analysis of the deposited data

Results flagged for a closer look

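The drug response differed between genotypes, by a test of the difference itself (edgeR, all 18 libraries), in 14 members for niraparib and 3 for olaparib. Each value is the log2 fold change in PARP1 KO cells minus that in WT cells. For niraparib it was 2.16 for H2BC7, 1.67 for H2BC8, 1.76 for H2BC9, 1.23 for H2BC4, 0.68 for H2BC5, 0.65 for H2BC12 and 1.85 for H2BC17. The H2A genes H2AC6 and H2AC8 differed by 0.72 and 0.67, and the H3 genes H3C10 and H3C6 by 1.16 and 0.65. H4C5 differed by 1.45, H4C12 by 2.71 and H1-3 by 2.0. Of the 50-base stretches of H4C12, 100% also occur elsewhere in the genome. For olaparib the value was 1.28 for H2BC7, 1.13 for H2BC8 and 0.66 for H3C10. Each genotype is 1 line, so genotype and line cannot be told apart.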

How the results depend on the processing

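With no fold limit, 10 members were lower with olaparib in WT cells (1745 of 22446 genes) and 7 were lower with niraparib than with olaparib (3627 genes). In PARP1 KO cells 4 were lower with olaparib (852 of 22037 genes) and 3 were higher with niraparib than with olaparib (940 genes). With a limit of 1.5 on the log2 scale, 5 members were lower with niraparib (255 of 22446 genes) and 1 with olaparib (103 genes) in WT cells, 6 were higher in the genotype by niraparib interaction (229 of 24675 genes), and 0 passed in either comparison of the drugs, between the genotypes without drug and in the genotype by olaparib interaction. Between the genotypes without drug, 2 members were called with the stricter count filter, where 13 of 17444 genes were called higher and 22 lower. With DESeq2, 2 members were called in that comparison, where 19 of 24675 genes were called higher and 26 lower. With no filter on low counts, 5 were called in the genotype by olaparib interaction. Of all genes, 226 of 34887 were then called higher and 120 lower, against 68 and 94 of 24675 with the main filter.

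Leaving out each library in turn gave 12 to 16 members called with niraparib and 5 to 7 with olaparib in WT cells, and 1 to 3 between them (1 without WT niraparib replicate 2 or WT olaparib replicate 1). In PARP1 KO cells it gave 0 to 0 with niraparib, 0 to 1 with olaparib (1 without DMSO replicate 1) and 0 to 1 between them (0 without niraparib replicate 1 or 2). It gave 0 to 1 between the genotypes without drug (0 without WT replicate 1 or 3 or any PARP1 KO replicate), 11 to 15 in the genotype by niraparib and 2 to 4 in the genotype by olaparib interaction. The causes were not tested.

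With the replicate number as a block, the counts in the same order were 14, 6, 2, 0, 0, 1, 1, 13 and 3. The numbers do not pair the samples, since 5 of 18 same-number correlations within a genotype were above 0.1 (range -0.56 to 0.58), and 4 of 18 libraries correlated best with their own number.

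Over the 39 pairs of a gene and a comparison set by the rule on named genes, 677 of 705 alternative values kept their call and direction, 28 lost the call, all with 1 library left out, and 0 reversed. These leave out 3 called pairs that also lost their call without single libraries, H2AC13 with niraparib, H2BC12 in the genotype by niraparib interaction and H2BC18, which lost it with DESeq2 too, as well as the low H3C2, H3C12, H4C12 and H2BC17. Depth limits the 24 tested members below 1 CPM, whose median SE with niraparib in WT cells was 0.79 against 0.12 in the other 16.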
